A study of Mus musculus with 6 samples.

Results

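Ms4a1, Cd79a, Cd79b, Cr2, Fcer2a, Pax5, Cxcr5, Cxcl13 and Ltb are 9 genes of B cells and of the lymphoid follicles in which B cells gather. They were chosen by name, as rows of the deposited expression table, and are 9 of the 54532 genes listed there. RNA-seq was performed on whole tumors, 3 of Tmem173fl/fl and 3 of Tmem173iΔmye mice of the AOM+DSS-L groups, a model of colitis-associated carcinoma in which azoxymethane (AOM, a colon carcinogen) is followed by dextran sodium sulfate (DSS, which damages the colonic epithelium). In both genotypes loxP sites flank Tmem173, which encodes STING, and the Tmem173iΔmye mice also carry Lyz2-Creert2, spelled Lzym-Creert2 in the series description. This Cre is driven by Lyz2, a gene of macrophages, neutrophils and other myeloid cells and not of B cells, and cuts the loxP sites after tamoxifen (TAM). Both groups had 3 cycles of DSS before both were given TAM, so TAM and the loxP sites are shared by the controls and Cre is not. All mice were on the C57BL/6N background, and their age at sampling is not given in the sources used here. The comparison asks how tumors differ when myeloid STING is deleted after they have formed.

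A B cell reads antigen through its B cell receptor, an immunoglobulin that signals through the CD79 pair. In the gut, B cells gather in follicles, in Peyer's patches, isolated lymphoid follicles and lymphoid aggregates that can arise in chronic inflammation. Stromal cells of the follicle secrete CXCL13, B cells carrying CXCR5 migrate towards it, and lymphotoxin made by lymphocytes acts back on the stroma and keeps it in this state.

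The reads that fell on genes numbered 15329810 to 16533732 per tumor, so the depths were close to one another. For Tmem173, the Tmem173fl/fl tumors gave 1748, 2911 and 1705 counts and the Tmem173iΔmye tumors gave 2291, 2245 and 1953, so its level in whole tumor RNA did not separate the genotypes. Replicate 1 of Tmem173fl/fl and both replicates 1 and 2 of Tmem173iΔmye had 2655 or more counts of Y-linked genes, and no other tumor had over 2, so sex was not balanced between the groups. Of 16426 genes with a mean FPKM (reads scaled for gene length and library size) of at least 0.5, edgeR's quasi-likelihood test gave none an adjusted p under 0.05, which is 0% (1008 had an unadjusted p under 0.05), and DESeq2 gave 28, which is 0.17%. All 9 B cell and follicle genes passed this filter, but Cr2 and Fcer2a were under an FPKM of 0.5 in 4 tumors each and Ms4a1, Pax5 and Cxcr5 in 3 each.

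The region just upstream of the transcription start was given in RefSeq (GRCm38.p6) for 6 of the 9 genes, with 8 starts between them, and not for Ms4a1, Cd79b and Cxcr5. The 250 bases upstream of Cd79a and Cxcl13 are printed here because Cd79a, a gene of B cells, and Cxcl13, a gene of the stroma that attracts them, followed different orders over the tumors. The window of Cd79a is chr7:24897247-24897496 and that of Cxcl13 chr5:95956689-95956938, both on the plus strand, and each runs up to the base before the RefSeq start. In the annotation of the count table Cd79a starts earlier, so 116 bases of its window, including the marked motif, lie inside the annotated gene, while 0 bases of the Cxcl13 window do. In Cd79a the capitals mark AGGAAGT, the core bound by PU.1 and SPI-B, and in Cxcl13 they mark TATAAA, the letters of the core promoter element at which TATA-binding protein sits.
Cd79a: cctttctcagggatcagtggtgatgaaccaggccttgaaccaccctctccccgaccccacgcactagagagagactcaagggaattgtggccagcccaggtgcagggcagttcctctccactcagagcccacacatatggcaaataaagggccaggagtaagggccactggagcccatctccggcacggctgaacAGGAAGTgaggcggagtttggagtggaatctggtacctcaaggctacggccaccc
Cxcl13: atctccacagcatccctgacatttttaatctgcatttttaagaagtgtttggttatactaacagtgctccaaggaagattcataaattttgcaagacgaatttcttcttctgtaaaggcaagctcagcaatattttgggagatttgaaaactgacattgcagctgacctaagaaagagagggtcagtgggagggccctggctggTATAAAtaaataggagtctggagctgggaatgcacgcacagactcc
The first base of AGGAAGT stood at -55 from the start of Cd79a and that of TATAAA at -46 from the start of Cxcl13. A second TATAAA was found at -33 from 1 of the starts of Fcer2a. Both strands of the 8 windows were searched for AGGAAGT (PU.1 and SPI-B), for TATAAA and for the octamer ATGCAAAT, the EBF core CCCNNGGG and the NF-kappaB core GGGNNTTCC, and no other match was found. Among all 32817 RefSeq windows of this length, 7.69% held AGGAAGT, 12.4% TATAAA, 1.6% the octamer, 11.8% the EBF core and 4.97% the NF-kappaB core. TATAAA was added to the search after the sequences were seen. The windows of Cd79a and Pax5 were 58.8% G and C, that of Ltb 63.2%, that of Cr2 53.6% and that of Cxcl13 42%.

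Genes of the B cell receptor complex and the B cell surface were high in 1 tumor of each genotype and low in the other 4. Cd79a (chromosome 7, 24897381 to 24902197, plus strand, GRCm38), which encodes the CD79A signalling chain of the receptor, had 467, 54 and 10 counts in Tmem173fl/fl replicates 1, 2 and 3 and 37, 279 and 26 counts in Tmem173iΔmye replicates 1, 2 and 3. Tmem173fl/fl replicate 1 and Tmem173iΔmye replicate 2 stood above the rest, and the groups overlapped. Cd79b (chromosome 11, 106311341 to 106314762, minus strand), which encodes its partner chain, had 293, 43 and 15 counts in Tmem173fl/fl and 35, 182 and 13 in Tmem173iΔmye tumors, with the same pair of tumors on top. Ms4a1 (chromosome 19, 11249675 to 11266241, minus strand), which encodes the B cell surface protein CD20, had 310, 59 and 11 counts in Tmem173fl/fl and 11, 136 and 19 in Tmem173iΔmye tumors. In CPM (counts scaled to a common library size, normalized by TMM), the highest tumor was 50.6 times the lowest for Cd79a, 23.0 times for Cd79b and 30.5 times for Ms4a1. The mean CPM of Cd79a was 11.5 ± 16.4 (SD, n = 3) in Tmem173fl/fl and 7.19 ± 9 (SD, n = 3) in Tmem173iΔmye tumors, so the SD was larger than the mean in each group. Fold changes are always given for Tmem173iΔmye relative to Tmem173fl/fl. On the log2 scale Cd79a was at -0.68 (SE 1.29, edgeR adjusted p = 0.902). Cd79b was at -0.65 (SE 1.17, adjusted p = 0.897 from edgeR) and Ms4a1 at -1.24 (SE 1.22, adjusted p = 0.809 from edgeR). None of these 3 differences was larger than the spread between tumors of one genotype. CD79A and CD79B form a pair in the receptor, and the ratio of Cd79b to Cd79a in CPM, not scaled for gene length, lay between 0.5 and 1.5 in the 6 tumors.

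Genes that mark mature and follicular B cells showed the same order at the top. Cr2 (chromosome 1, 195136811 to 195176716, minus strand), which encodes complement receptor 2 of B cells and follicular dendritic cells, had 284, 53 and 2 counts in Tmem173fl/fl and 3, 136 and 19 in Tmem173iΔmye tumors. Its highest tumor was 154 times its lowest in CPM, a ratio that rests on 2 counts in the lowest, and the groups overlapped. Fcer2a (chromosome 8, 3681737 to 3694175, minus strand), which encodes CD23, a low-affinity IgE receptor of mature B cells, had 143, 19 and 2 counts in Tmem173fl/fl and 4, 105 and 7 in Tmem173iΔmye tumors. Pax5 (chromosome 4, 44524757 to 44710487, minus strand), the transcription factor that commits cells to the B lineage, had 266, 73 and 4 counts in Tmem173fl/fl and 3, 126 and 18 in Tmem173iΔmye tumors. For each of the 3 genes, Tmem173fl/fl replicate 1 was highest, Tmem173iΔmye replicate 2 next and Tmem173fl/fl replicate 2 after it. The log2 fold changes were -1.15 (SE 1.46) for Cr2, -0.54 (SE 1.43) for Fcer2a and -1.27 (SE 1.38) for Pax5, with adjusted p of 0.851, 0.934 and 0.824 from edgeR. Mean CPM was 7.47 ± 8.82 (SD, n = 3) for Pax5 in Tmem173fl/fl and 3.09 ± 4.22 (SD, n = 3) in Tmem173iΔmye tumors.

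Cxcr5 followed the B cell genes and its ligand Cxcl13 did not. Cxcr5 (chromosome 9, 44511787 to 44561877, minus strand), the chemokine receptor that brings B cells and follicular helper T cells into follicles, had 140, 35 and 6 counts in Tmem173fl/fl and 13, 53 and 9 in Tmem173iΔmye tumors. It overlaps Bcl9l on the opposite strand, which had 1063 to 1761 counts per tumor, and the strand setting of the authors' counting is not given in the sources used here. In Tmem173fl/fl replicate 1, where Cxcr5 was highest, Bcl9l was the lowest of its group, and in Tmem173iΔmye replicate 2, where Cxcr5 was highest of that genotype, Bcl9l was the highest of its group with 1331 counts. The part of Bcl9l reads in Cxcr5 was not tested. The log2 fold change was -1.31 for Cxcr5 (SE 1.06, edgeR adjusted p = 0.77), and the groups overlapped. Cxcl13 (chromosome 5, 95956951 to 95961068, plus strand), the B cell-attracting chemokine of follicle stroma, had 249, 141 and 349 counts in Tmem173fl/fl and 40, 146 and 48 in Tmem173iΔmye tumors. As CPM these were 16.2, 9.40 and 20.9 in Tmem173fl/fl and 2.52, 9.20 and 3.06 in Tmem173iΔmye tumors, with means of 15.5 ± 5.80 (SD, n = 3) and 4.93 ± 3.71 (SD, n = 3). The groups did not overlap in CPM, but Tmem173fl/fl replicate 2 and Tmem173iΔmye replicate 2 lay next to each other and in raw counts stood in the opposite order. The log2 fold change of Cxcl13 was -1.65 (SE 0.53, unadjusted p = 0.0145, adjusted p = 0.742 from edgeR), so it failed the correction over all genes tested. The exact two-sided permutation test gave p = 0.1, the smallest that 3 against 3 tumors allow. DESeq2 gave -1.66 (SE 0.51, adjusted p = 0.182).

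**Figure D1:**
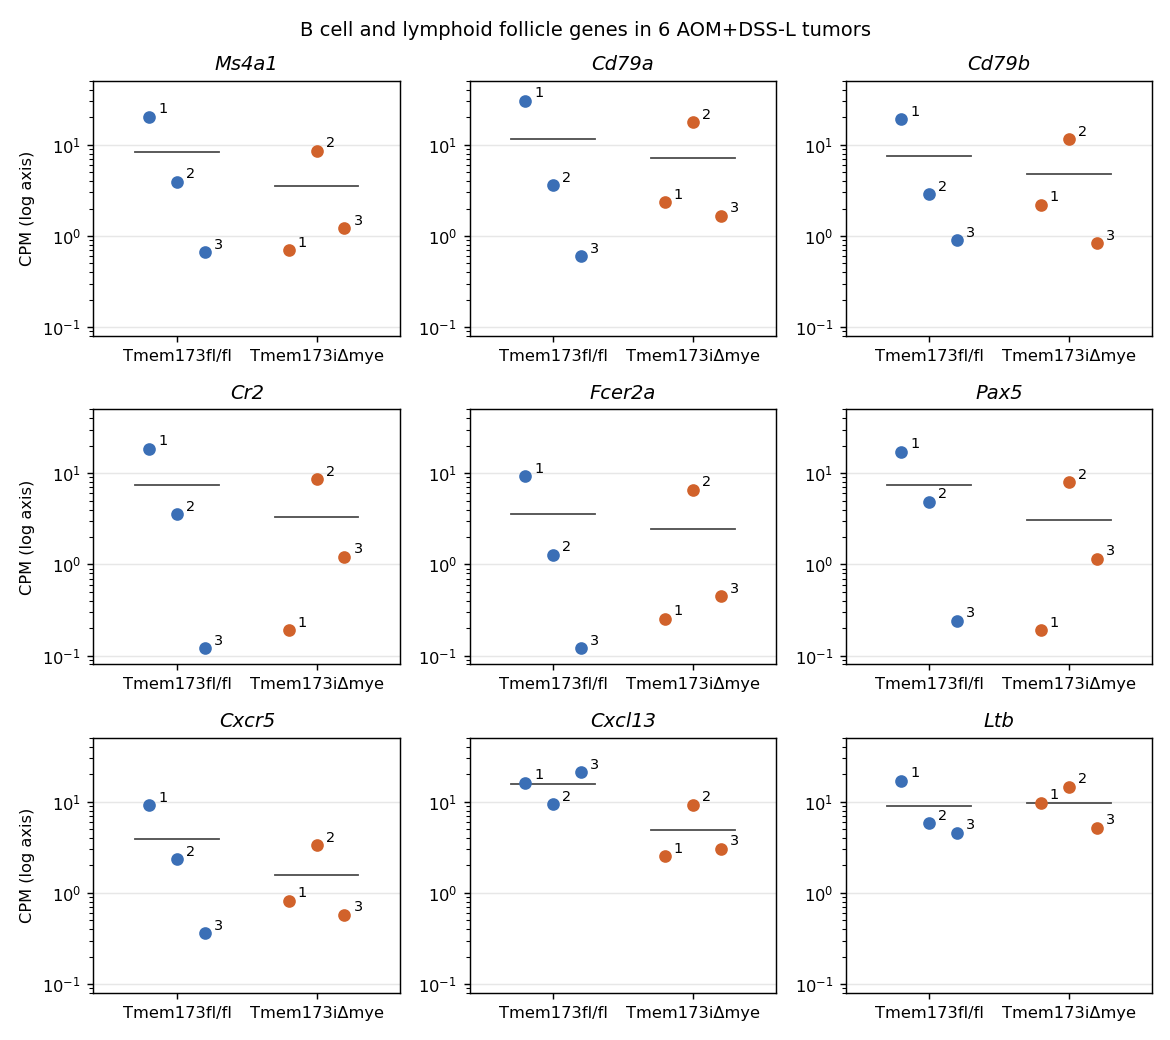
CPM of each of the 9 genes (log axis) in 3 Tmem173fl/fl and 3 Tmem173iΔmye tumors, with each point 1 tumor marked by its replicate and the group means drawn as lines. In 8 of the 9 panels Tmem173fl/fl replicate 1 and Tmem173iΔmye replicate 2 are the highest tumors of their groups and of all 6, and in the Cxcl13 panel Tmem173fl/fl replicate 3 is highest.

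The tumor with most Cxcl13 had the fewest counts of Cd79a. Tmem173fl/fl replicate 3, with 349 counts of Cxcl13, had 10 counts of Cd79a, 11 of Ms4a1 and 4 of Pax5. The ratio of Cxcl13 to Cd79a in CPM was 34.9 in that tumor, 0.533 and 2.61 in Tmem173fl/fl replicates 1 and 2 and 1.08, 0.523 and 1.85 in Tmem173iΔmye replicates 1, 2 and 3. The ratio was lowest in both tumors with high B cell genes, and the ratios of the genotypes overlapped. Within Tmem173iΔmye, the tumor with most Cd79a also had most Cxcl13.

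**Figure D2:**
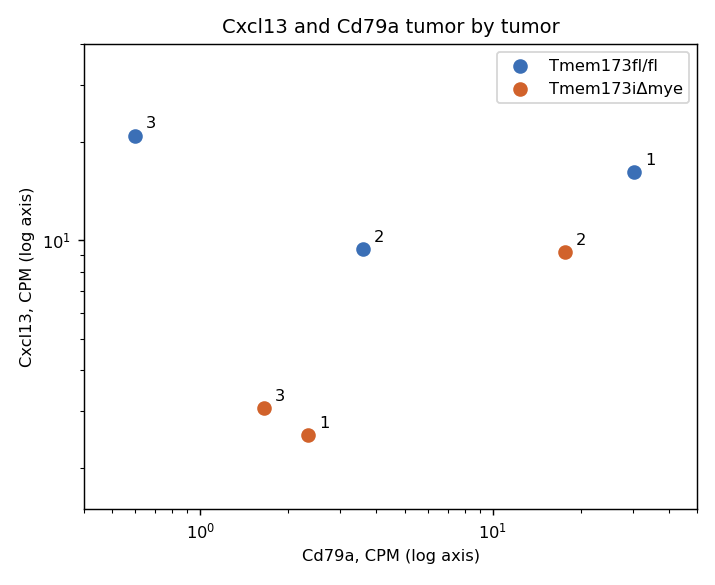
Cxcl13 against Cd79a in CPM (both axes log), with 1 point per tumor, labelled by replicate. Tmem173fl/fl replicate 3 lies at the upper left with 20.9 CPM of Cxcl13 and 0.6 CPM of Cd79a, and the Tmem173iΔmye tumors lie below the Tmem173fl/fl tumors on the Cxcl13 axis.

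From the highest to the lowest tumor, Ltb varied least of the 9. Ltb (chromosome 17, 35194439 to 35196320, plus strand), which encodes lymphotoxin beta, the membrane anchor of the lymphotoxin that T cells, B cells and innate lymphoid cells present to stroma, had 259, 87 and 76 counts in Tmem173fl/fl and 153, 231 and 81 in Tmem173iΔmye tumors. The same pair of tumors was on top, but the highest was 3.69 times the lowest, against 8.29 times for Cxcl13. Its log2 fold change was 0.11 (SE 0.55, adjusted p = 0.966 from edgeR), with 9.07 ± 6.76 CPM (SD, n = 3) in Tmem173fl/fl and 9.79 ± 4.70 CPM (SD, n = 3) in Tmem173iΔmye tumors.

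Per gene length, in FPKM averaged over the 6 tumors, Cxcl13 was highest at 8.82, before Cd79a at 6.35, Ltb at 6.17 and Cd79b at 4.30. Fcer2a at 0.96, Ms4a1 at 0.94, Cxcr5 at 0.818, Cr2 at 0.652 and Pax5 at 0.59 were lower. The ranges over tumors of any neighbours in this order overlapped. The order changed with the tumor, since in Tmem173fl/fl replicate 1 Cd79a, at an FPKM of 20.5, stood above Cxcl13, at 13.9, and in Tmem173fl/fl replicate 3 Cd79a was at 0.409 and Cxcl13 at 18.1.

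In whole tumor RNA, fewer B cells and less RNA per B cell cannot be told apart. Between the genotypes, 8 of the 9 genes had a log2 fold change under 0, with a median of -1.15, beside 50.6% of all genes tested and a median of -0.0042. Of the 9, 0 had an adjusted p under 0.05 in edgeR, and 1 (Cxcl13) had an unadjusted p under 0.05. The study's threshold, unadjusted p under 0.05 with a log2 fold change of 1 or more in size, was passed by 1 gene in the lower direction, Cxcl13, against 0.864% of all genes, and by 0 in the higher direction, against 1.26%. The groups did not overlap for 1 of the 9, again Cxcl13 and lower in Tmem173iΔmye, where 12.5% of all genes did not overlap in either direction and 6.47% were lower. The exact two-sided permutation p of the difference in mean log2(CPM + 1) lay between 0.6 and 0.9 for the other 8 genes. Within a group, the SD of log2(CPM + 1) was 1.88 for Cd79a, 1.82 for Cr2 and 1.74 for Pax5, against a median of 0.23 over all genes. Only 0.14% of genes had a larger SD than Cd79a and 4.45% a larger one than Cxcl13.

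The fold changes of the B cell genes turned on single tumors. Without Tmem173fl/fl replicate 1, 1 of the 9 log2 fold changes was under 0 and the median was 0.87, with Cd79a at 1.78, Cd79b at 1.36, Ms4a1 at 0.61, Cr2 at 0.87, Fcer2a at 1.82, Pax5 at 0.28, Cxcr5 at 0.24 and Ltb at 0.92. Without Tmem173iΔmye replicate 2, all 9 were under 0 and the median was -2.52, with Cd79a at -2.52, Ms4a1 at -3.10 and Pax5 at -3.47. Cxcl13 was -1.63 without the first and -2.47 without the second. With both tumors left out, an alternative chosen after the values were seen, 8 of the 9 were under 0 and the median was -0.95. Cd79a was then at -0.06 (SE 0.82), Cd79b at -0.30 (SE 0.76), Cxcr5 at -0.93, Fcer2a at -0.95, Ms4a1 at -1.25, Cr2 at -1.36 and Pax5 at -1.91. Ltb was at 0.52 and Cxcl13 at -2.45 (SE 0.48, adjusted p = 0.481 from edgeR).

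**Figure D3:**
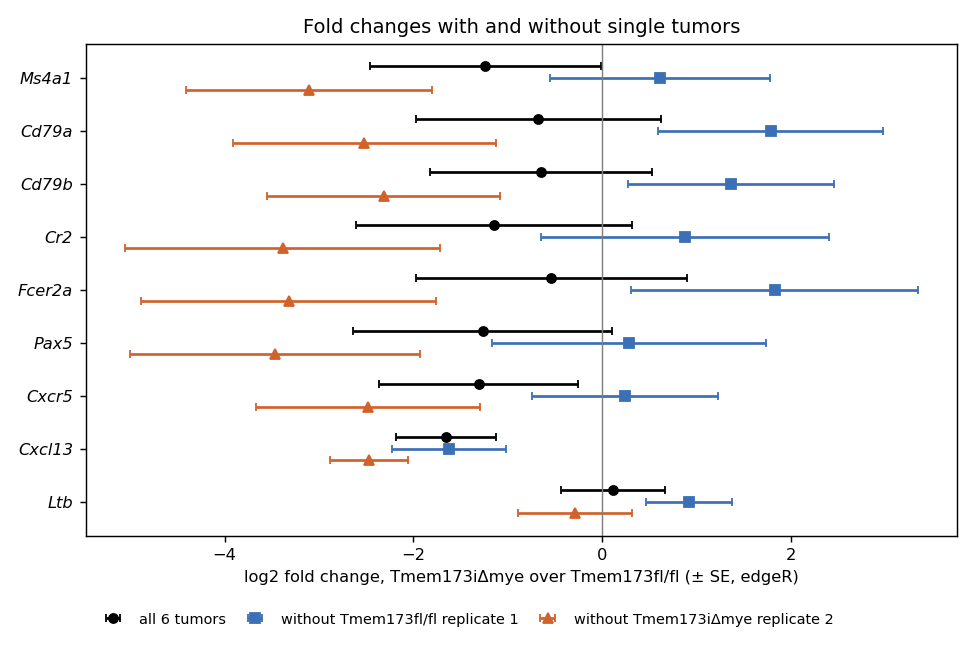
Log2 fold change of each of the 9 genes, Tmem173iΔmye over Tmem173fl/fl, with SE from edgeR, over all 6 tumors and without single tumors as named in the legend. Without Tmem173fl/fl replicate 1 all genes but Cxcl13 lie above 0, and Cxcl13 is under 0 in each fit drawn.

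Among all genes tested, 4.85% had Tmem173fl/fl replicate 1 and Tmem173iΔmye replicate 2 above each of the other 4 tumors, as did 8 of the 9. A stricter pattern, with both tumors at least 2 times each of the others, held for 30 genes, which is 0.183% of those tested, and the pattern and its limit were chosen after the values were seen. Of the 9, Ms4a1, Cd79a, Cd79b, Cr2 and Fcer2a had it. A further 11 of the 30 were other B cell genes, among them Blk, Cd22, Cd37, Fcmr, Fcrla, Ighd, Ighm, Spib, Tnfrsf13c and Vpreb3. Of the remaining 14, 6 were Siglecg and Btla, which encode inhibitory receptors of lymphocytes, Ikzf3, a lymphocyte transcription factor, and H2-Oa, H2-Ob and H2-DMb2, whose products regulate peptide loading of MHC class II. The other 8 were St8sia5, a sialyltransferase gene, with 76 and 90 counts in the pair, and Gm15716, Gm21885, Gm24391, Gm25982, Gm35065, Mir6399 and Traj13, with at most 14 counts in any tumor. For Fcer2a the lower tumor of the pair was 5.22 times the highest of the other 4, for Cd79a 4.88 times and for Cd79b 4 times. For Pax5, at 1.63 times, and Cxcr5, at 1.43 times, Tmem173fl/fl replicate 2 came closer.

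**Figure D4:**
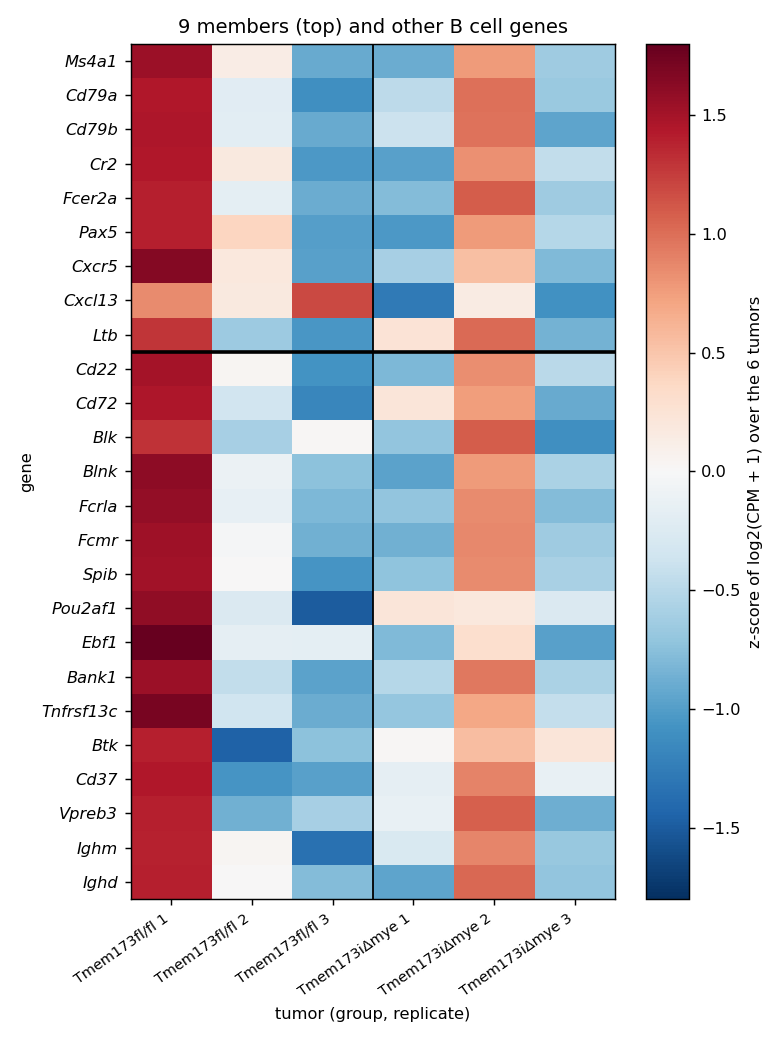
Z-scores over the 6 tumors of log2(CPM + 1) for the 9 genes (above the horizontal line) and other B cell genes, with Tmem173fl/fl tumors left and Tmem173iΔmye tumors right of the vertical line. Tmem173fl/fl replicate 1 and Tmem173iΔmye replicate 2 are red in nearly all lines, and Cxcl13 is highest in Tmem173fl/fl replicate 3.

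Other B cell identity and receptor signalling genes were also mostly highest in Tmem173fl/fl replicate 1 and Tmem173iΔmye replicate 2. Of 17 such genes, 15 passed the filter. Of these, 13 had a log2 fold change under 0, beside 50.6% of all genes tested, and the median was -0.51. An unadjusted p under 0.05 was found for 0 of them. Of the 15, 14 had the same pair of tumors on top, beside 4.85% of all genes tested. The exception was Pou2af1, a coactivator that plasma cells also express. Both tumors were at least 2 times each of the others for 11 of the 15, beside 0.183% of all genes tested. The lowest p-values of this list belonged to Tnfrsf13c, the receptor for the survival factor BAFF, with -1.24 (SE 1.40), Cd22, an inhibitory coreceptor, with -0.91 (SE 1.11), and Spib, an ETS factor of B cells, with -1 (SE 1.22). Summed over the list, the level ranged 3.53-fold over the tumors, against 10.3-fold for the 9 genes. Blnk, which ranged 1.32-fold, weighs heavily in this sum, with 87.9 of 115 CPM in Tmem173fl/fl replicate 3. Taken singly, the genes of the list ranged from 1.32-fold to 160-fold (median 13.4-fold), against a median of 30.5-fold over the 9.

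The genes closest to the mean z-score profile of the 9, by mean absolute difference over the 6 tumors, were Fcrla at 0.0856, Gm48319 at 0.086, Ighd at 0.097, Fcmr at 0.103, Spib at 0.116 and Gm23639 at 0.13. Fcrla encodes an Fc receptor-like protein of B cells, Fcmr the Fc receptor for IgM and Ighd the constant region of IgD, carried by naive B cells. Gm48319 had at most 3 counts and Gm23639 at most 9 in any tumor. Of the 9, Ms4a1 was closest to their mean at 0.131, and Ltb at 0.386 and Cxcl13 at 0.707 were farthest. This mean includes each of the 9 itself, so their values are not like for like with those of the other genes.

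Genes of germinal centres, where activated B cells mutate their receptors, were near the limit of detection or had other orders over the tumors. Il21, the cytokine of follicular helper T cells, had at most 5 counts in any tumor. Of 6 germinal centre and follicular helper genes tested of 11, 1 (Mef2b) had the same pair of tumors on top, beside 4.85% of all genes tested. Pdcd1, which encodes PD-1, an inhibitory receptor of T cells, had 24, 18 and 29 counts in Tmem173fl/fl and 55, 72 and 48 in Tmem173iΔmye tumors, and its log2 fold change was 1.29 (SE 0.33, unadjusted p = 0.00472, adjusted p = 0.742 from edgeR). Icos, a costimulator of follicular helper T cells, had 0.81 (SE 0.33, adjusted p = 0.742 from edgeR), and Mef2b -1.35 (SE 1.01).

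Stromal and lymphotoxin pathway genes, the partners of Cxcl13 and Ltb, were mostly above 0 in log2 fold change, and none passed the test. Of 15 tested of 16, 13 were above 0 and 0 had an unadjusted p under 0.05, and the median was 0.26. Of all genes tested, 50.6% were under 0. Several of the 13 lay close to 0, such as Vcam1 at 0.0025 (SE 0.20) and Relb at 0.019 (SE 0.13). Tmem173fl/fl replicate 1 and Tmem173iΔmye replicate 2 were on top for 4 of the 15, beside 4.85% of all genes tested. These were Lta, Madcam1, Mfge8 and Enpp2. Ltbr, the lymphotoxin beta receptor, had 2178 to 2358 counts in the 6 tumors and a log2 fold change of 0.0014 (SE 0.11). Lta, which pairs with lymphotoxin beta, had 23, 3 and 9 counts in Tmem173fl/fl and 18, 23 and 12 in Tmem173iΔmye tumors. Ccl19, a chemokine of the T cell zone, had at most 1 count in any tumor. The lowest p-values belonged to Ccr7, its receptor, at 0.89 (SE 0.48), Tnfsf11, the RANK ligand, at 1.13 (SE 0.64), and Fcgr2b, an inhibitory Fc receptor, at 0.37 (SE 0.27). Among the 5 genes of the BAFF and APRIL system, Tnfsf13b, which encodes BAFF, had 0.64 (SE 0.26, unadjusted p = 0.0385, adjusted p = 0.742 from edgeR). The groups did not overlap in CPM for Tnfsf13b, as for 12.5% of all genes in either direction. They nearly touched, with Tmem173fl/fl replicate 1 at 9.88 CPM and Tmem173iΔmye replicate 2 at 9.96 CPM. The BAFF receptor gene Tnfrsf13c followed the B cell genes. Of the 4 tested, 2 had the same pair of tumors on top, Tnfrsf13b and Tnfrsf13c.

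Plasma cell genes, expressed by the antibody-secreting descendants of B cells, had other orders over the tumors. Of 9 tested of 10, 7 were above 0 in log2 fold change (median 0.26), where 50.6% of all genes tested were under 0. Of these plasma cell genes, 1 (Irf4) had the same pair of tumors on top, beside 4.85% of all genes tested. Jchain, which joins IgA and IgM into polymers, had 188, 69.8 and 88.4 CPM in Tmem173fl/fl and 378, 136 and 228 CPM in Tmem173iΔmye tumors, which is 1.10 in log2 fold change (SE 0.46, unadjusted p = 0.0438, adjusted p = 0.742 from edgeR). The tumor with most Jchain, Tmem173iΔmye replicate 1, had 3 counts of Pax5.

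Summed markers of other cells that a tumor can hold had a smaller range over the tumors than those of B cells, but single markers ranged more widely than their sums. Ptprc, the leukocyte antigen CD45, had 59.6, 22.5 and 24.9 CPM in Tmem173fl/fl and 42.5, 42.8 and 29.3 CPM in Tmem173iΔmye tumors, and was highest in the tumor with most B cell genes. Per unit of Ptprc, Cd79a was 0.509, 0.16 and 0.0241 in Tmem173fl/fl and 0.0549, 0.41 and 0.0565 in Tmem173iΔmye tumors, so the same pair stood out among leukocyte RNA. Per unit of Ptprc, Cxcl13 was 0.271, 0.417 and 0.843 in Tmem173fl/fl and 0.0594, 0.215 and 0.104 in Tmem173iΔmye tumors. The groups did not overlap in this ratio, as they already did not in CPM. The share of all genes without overlap in a ratio to Ptprc was not computed. Summed T cell markers ranged 2.22-fold, from 21.1 to 42.9 CPM in Tmem173fl/fl and 26.7 to 46.8 CPM in Tmem173iΔmye tumors, and 2 of 9 tested had the pattern. Taken singly, T cell markers ranged from 1.75-fold for Lck to 12-fold for Cd3d (median 4.43-fold). The median was 30.5-fold over the 9 genes and 13.4-fold over the 15 other B cell genes tested. Summed pan-leukocyte markers ranged 2.12-fold, with 2 of 5, macrophage markers 1.62-fold, with 0 of 10, and epithelial markers 1.26-fold, with 0 of 10. The pattern here is both tumors above each of the other 4, which 4.85% of all genes tested had. In lists this short, a count of 0 or 1 cannot be told from that share. The pattern also held for 0 of 3 dendritic cell markers tested and 0 of 10 markers of fibroblasts and smooth muscle. Of the markers of M cells and follicle-associated epithelium, which covers gut follicles, 1 of 6 tested had the pattern, namely Spib, which B cells also express. Of those of lymphoid tissue inducer cells and type 3 innate lymphoid cells, 1 of 6 had it, namely Ccr6, a receptor of B cells too. In no list did edgeR give a gene an adjusted p under 0.05. The part of leukocyte content in the results on the 9 genes was not tested.

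**Figure D5:**
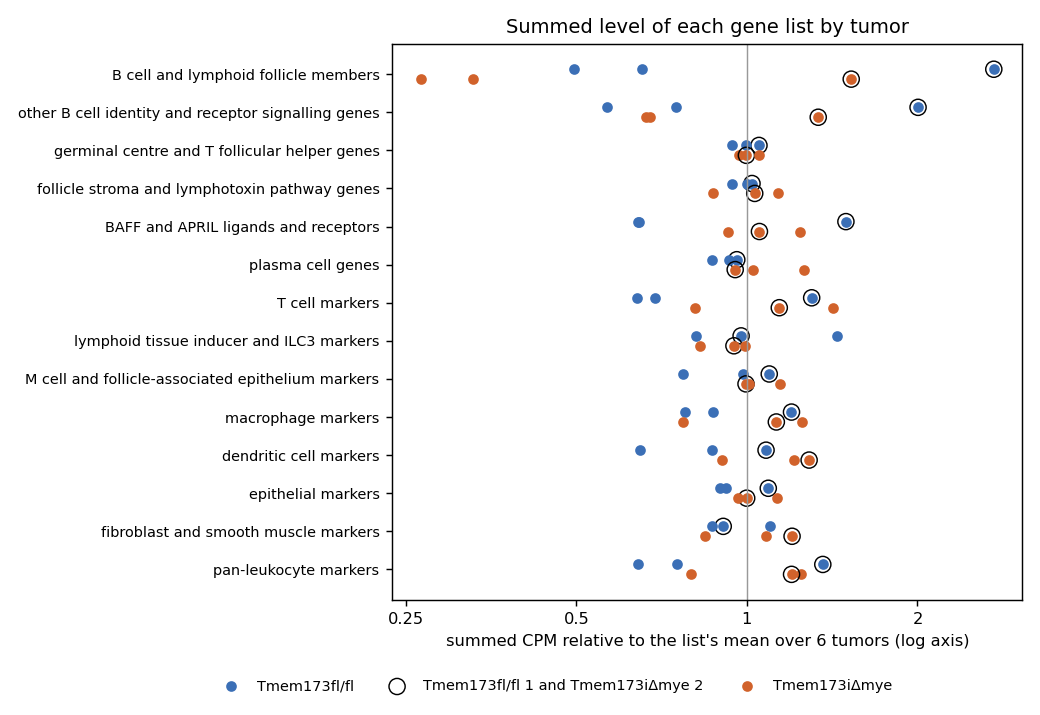
Summed CPM of each gene list in each tumor, relative to the list's mean over the 6 tumors (log axis), with 1 point per tumor and circles around Tmem173fl/fl replicate 1 and Tmem173iΔmye replicate 2. The 9 genes and the other B cell genes spread 10.3-fold and 3.53-fold from lowest to highest, and the epithelial markers 1.26-fold. The sum of the other B cell genes holds Blnk, which ranged 1.32-fold, and the median single gene of that list ranged 13.4-fold.

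Both tumors in which the B cell genes were high had Y-linked reads, as did Tmem173iΔmye replicate 1, in which they were low. In a fit with sex, read from Y-linked counts, as a second term, all 9 log2 fold changes were under 0, with Cxcl13 at -1.87, Ms4a1 at -1.60 and Ltb at -0.25, and each adjusted p was 1 from edgeR. Among the 3 tumors with Y-linked reads, the difference in log2(CPM + 1) of Cxcl13, Tmem173iΔmye minus Tmem173fl/fl, was -1.52, and among the other 3 it was -1.90. For Cd79a these differences were -1.99 and -0.03, and for Pax5 -2.49 and -0.33. Each of these differences rests on 1 tumor in an arm and has no test, and the part of sex in these results was not tested further.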

How the data were processed

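RNA was extracted from 3 whole tumors per genotype and sequenced from poly-A libraries. Per the submitters' processing notes, the tools were CASAVA 1.8, fastp, HISAT2 2.0.5, featureCounts 1.5.0-p3 and DESeq2 1.20.0, and the build was GRCm38. The strand setting of the counting is not given in the sources used here. Each gene has a raw read count deposited by the authors, and deposited FPKM values scaled for gene length and library size stand beside it. Group means, fold changes and p-values of the authors' own comparison were also in the table and were not used.

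Genes whose FPKM averaged 0.5 or more, 16426 in all, entered edgeR 4.0.16 under R 4.3.3. Its quasi-likelihood test used TMM library sizes, genotype alone, and p-values adjusted by Benjamini and Hochberg's method over all these genes. SE was taken as the size of the log2 fold change over the root of F. For single genes, an exact permutation test (two-sided) compared mean log2(CPM + 1). DESeq2 1.42.0, limma 3.58.1 (voom, and log2(FPKM + 1) or log2(FPKM + 0.1)), median-of-ratios scaling, other filters, the replicate number as a block, sex as a covariate and leaving out tumors were alternatives. The scripts were tested on simulated data. The members and the 14 gene lists were chosen with earlier results of these data known. Genes named are the 9 members, at most 3 genes of a list with the lowest p-values, markers near 0, Tmem173, Ptprc and the 6 genes most like the members, and other genes were chosen after their values were seen. The labels do not say that tumors of one group came from separate mice, and p-values then measure only the spread between these tumors. Genes of the lists that are left out of the text are not reported here.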

Additional observations from a re-analysis of the deposited data

How the results depend on the processing

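Over 16 alternatives, Cxcl13 stayed lower in Tmem173iΔmye tumors, with log2 fold changes from -2.47 to -1.35 and adjusted p from 0.182 to 1, and 0 of the 9 genes had an adjusted p under 0.05 in any of them. Leaving out each tumor in turn gave 1 to 9 genes under 0, a median from -2.52 to 0.87, and 0 to 2 genes past the study's threshold in the lower direction. Single genes then ranged from -2.52 to 1.78 for Cd79a, -2.32 to 1.36 for Cd79b, -3.10 to 0.61 for Ms4a1, -3.38 to 0.87 for Cr2, -3.32 to 1.82 for Fcer2a, -3.47 to 0.28 for Pax5, -2.48 to 0.24 for Cxcr5 and -0.29 to 0.92 for Ltb. The study's threshold was passed by 0 genes without Tmem173fl/fl replicate 3 and by 2 without Tmem173iΔmye replicate 2. Cd79a was at 0.050 with limma voom, and Ltb at -0.25 with sex as a covariate. A mean FPKM of at least 1 left 4 of the 9 genes, of which 3 were under 0, because fewer genes were tested. Same-numbered tumors correlated at 0.315, 0.00846 and 0.154 in their deviations from the group means, and 3 of 6 tumors correlated best with their own number, so the numbers were not taken to pair them. With the replicate block, Cd79a was at 0.16, Cxcl13 at -1.83 (adjusted p = 0.447 from edgeR) and 7 of the 9 genes were under 0. For the other reversals the cause was not tested. With 2 to 4 counts of Cr2, Fcer2a and Pax5 in single tumors, depth limits their ratios, and 3 tumors per group limit every comparison.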
